A study of Mus musculus with 12 samples.

Results

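The Wnt receptors described here are 8 Frizzled genes, Fzd1 to Fzd8, and the coreceptor genes Lrp5 and Lrp6, measured in the whole uterus of ovariectomized mice. They were found by gene symbol: every probe whose symbol in the files, or whose current RefSeq symbol, was a member was taken. This gave 15 probes for 10 genes among 27669 genes or unnamed probes on the array. All 10 genes had at least 1 probe well above background on all 12 arrays, and 14 of the 15 probes were tested. Another 3 probes reach a member only through an older synonym and were kept under the names in the files.

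The 12 single-colour arrays held 1 mouse each, in 4 groups of 3. WT and EAAE describe the Esr1 genotype, Esr1 being the gene of estrogen receptor alpha, and the series title calls the EAAE receptor deficient in DNA binding. Mice of each genotype received saline or E2 (estradiol), and a group is named by its genotype and treatment. All mice were adult females of at least 10 weeks on a C57bl6/Jx129 background, were ovariectomized and rested for 10 to 14 days, received 100 ul of saline or of E2 (dose not given in the sources used here), and gave their uterus 2 h later. The promoter, founder and any further alleles of the EAAE mice are not given in the sources used here. The mice of a group are numbered 1 to 3, and an array is named here by its group and that number.

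Frizzled proteins span the cell membrane and bind Wnt ligands through a cysteine-rich outer domain. With Lrp5 or Lrp6 beside them they recruit Dishevelled and Axin, which spares beta-catenin from breakdown, and with other partners they direct cell polarity. Fzd1, Fzd2 and Fzd7 form 1 sequence subfamily, Fzd5 and Fzd8 another, Fzd3 and Fzd6 a further one associated with planar cell polarity, and Fzd4 also binds norrin. In the uterus Wnt signals pattern the tract, form glands and take part in the response to estrogen. The comparisons ask how receptor transcripts change early after estradiol, and whether that needs a receptor alpha that binds DNA.

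Median processed intensity was 162.7 to 249.4 per array, and 64 to 74% of spots were well above background. Pearson r between arrays was 0.982 to 0.993 within groups and 0.918 to 0.988 across them. Esr1 was well above background on all arrays, and a transcript level cannot check a change in DNA binding. On its brighter probe it was 0.41 higher in EAAE under saline (log2, SE 0.10, adjusted p = 0.00929) and on the other probe it was at -0.28, so the probes disagreed in sign. The uterine genes Hoxa10, Hoxa11, Esr1 and Pgr were above background on all 12 arrays. The arrays lay on 3 slides. Slide 1 held all 4 groups, slide 2 held no WT saline array, slide 3 held no EAAE saline array, and the 3 EAAE E2 arrays all lay at position 4 of their slide. The WT saline arrays lay at positions 1, 1 and 2, the WT E2 arrays at 1, 3 and 2, and the EAAE saline arrays at 2, 3 and 3. Position can therefore not be fully told apart from genotype, or from estradiol in EAAE. In WT the treatments shared positions 1 and 2, and position 3 held only E2.

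The probe sequences matter here because receptors of 1 subfamily share stretches. Of 100 pairs of probes from different members, the most alike in an ungapped overlap were a Fzd2 probe and the dimmer Fzd7 probe, with 42 of 50 overlapping bases the same (84%). The next pair, that Fzd7 probe and a Fzd8 probe, shared 33, and the median over pairs was 20.5. Both sequences are shown as the files give them, 5′ to 3′, with the shared bases in capitals. The files place them in mm7 at chr11:102715340-102715399 (Fzd2) and chr1:59735681-59735740 (Fzd7), and the exon or UTR was not analysed here.
Fzd2 probe: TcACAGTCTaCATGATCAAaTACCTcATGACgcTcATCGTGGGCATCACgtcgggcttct
Fzd7 dimmer probe: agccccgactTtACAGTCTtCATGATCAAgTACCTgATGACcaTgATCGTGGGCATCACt
The brighter Fzd7 probe lies further along the gene, at chr1:59737506-59737565, and the single Fzd1 probe at chr5:4760009-4760068. No other pair reached the likeness of this one. For Fzd2 and Fzd7 both probes are given in each comparison.

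In the RefSeq promoter table (GRCm38.p6), 4 of the 10 members had an entry: Fzd1, Fzd4, Fzd5 and Fzd7. The 250 bases before the start site of Fzd1 (chr5:4758217-4758466, minus strand) and Fzd7 (chr1:59481897-59482146, plus strand) are shown because these were the members with the smallest p for estradiol in WT. Capitals mark matches, on either strand, to the motifs described next.
Fzd1 upstream: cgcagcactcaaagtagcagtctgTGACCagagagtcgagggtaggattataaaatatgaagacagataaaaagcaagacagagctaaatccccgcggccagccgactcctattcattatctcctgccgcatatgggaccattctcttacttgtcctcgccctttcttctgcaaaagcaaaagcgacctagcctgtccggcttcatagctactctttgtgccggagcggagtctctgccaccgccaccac
Fzd7 upstream: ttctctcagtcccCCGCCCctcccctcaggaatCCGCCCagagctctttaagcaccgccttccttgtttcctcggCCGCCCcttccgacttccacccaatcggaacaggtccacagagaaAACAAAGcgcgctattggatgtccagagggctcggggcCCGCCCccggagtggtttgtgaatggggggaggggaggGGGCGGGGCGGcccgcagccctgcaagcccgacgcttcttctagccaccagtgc
The motifs searched were the estrogen response element (GGTCA, any 3 bases, TGACC), its single arm GGTCA, the AP-1 motif TGANTCA, the TCF/LEF core CTTTG followed by A or T at both next positions, and the Sp1 box GGGCGG. The single arm is contained in the full element, and Sp1 boxes may overlap each other. The full element was in none of the 4 members' windows and in 0.0639% of all 32851 windows. The single arm was in 35.2% of all windows and occurred 1 time in Fzd1, 0 times in Fzd7 and 2 times each in Fzd4 and Fzd5. The AP-1 motif was in 6.75% of all windows and in none of the 4. The TCF/LEF core was in 14.8% of windows and occurred 1 time in Fzd7. Sp1 boxes, in 32.7% of all windows, numbered 6 in Fzd7, 7 in Fzd4, 9 in Fzd5 and 0 in Fzd1. GC content of the window was 51.2% for Fzd1 and 65.2% for Fzd7, against a median of 52.4% over all windows. These matches describe letters in 1 short window and show no binding.

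Within 2 h of estradiol in the WT uterus, 3 of the 10 receptor genes fell and none rose. They were Fzd1, Fzd7 and Fzd2, the 3 genes of 1 subfamily. The fall was 6.76-fold for Fzd1, 3.25-fold for Fzd7 and 2.17-fold for Fzd2. Fzd3, Fzd4, Fzd5, Fzd6, Fzd8, Lrp5 and Lrp6 did not pass the test. Of all 19304 genes tested, 49.3% were called in this comparison, 19.6% higher and 29.7% lower, so 3 lower genes of 10 is near the background. The members' median difference was log2 -0.02, against -0.15 for all genes. Values here are log2 intensities relative to the 75th percentile of each array's intensities, and calls are adjusted p under 0.05 from limma.

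Fzd1, a Wnt receptor, lay at 2.78, 2.94 and 2.74 in WT saline and at 0.11, -0.28 and 0.35 in WT E2. It lay at 3.02, 3.03 and 3.40 in EAAE saline and at 3.41, 3.17 and 3.54 in EAAE E2. The 3 WT mice given estradiol lay far below all other mice, and the E2 and saline mice of the EAAE genotype overlapped. In WT the difference was log2 -2.76 (SE 0.17, adjusted p = 1.02e-06, limma, n = 3 per group), rank 83 of 19304 from the largest fall. In EAAE it was 0.23 (SE 0.17, 95% interval -0.15 to 0.61, adjusted p = 0.552). The responses differed by 2.98 (SE 0.24, adjusted p = 1.41e-05). Within slides the WT difference was -2.42 (slide 1) and -3.12 (slide 3), and with slide as a block it was -2.77 (adjusted p = 1.72e-05). In order of the group means EAAE E2 and EAAE saline overlapped, EAAE saline and WT saline did not, and neither did WT saline and WT E2.

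**Figure D1:**
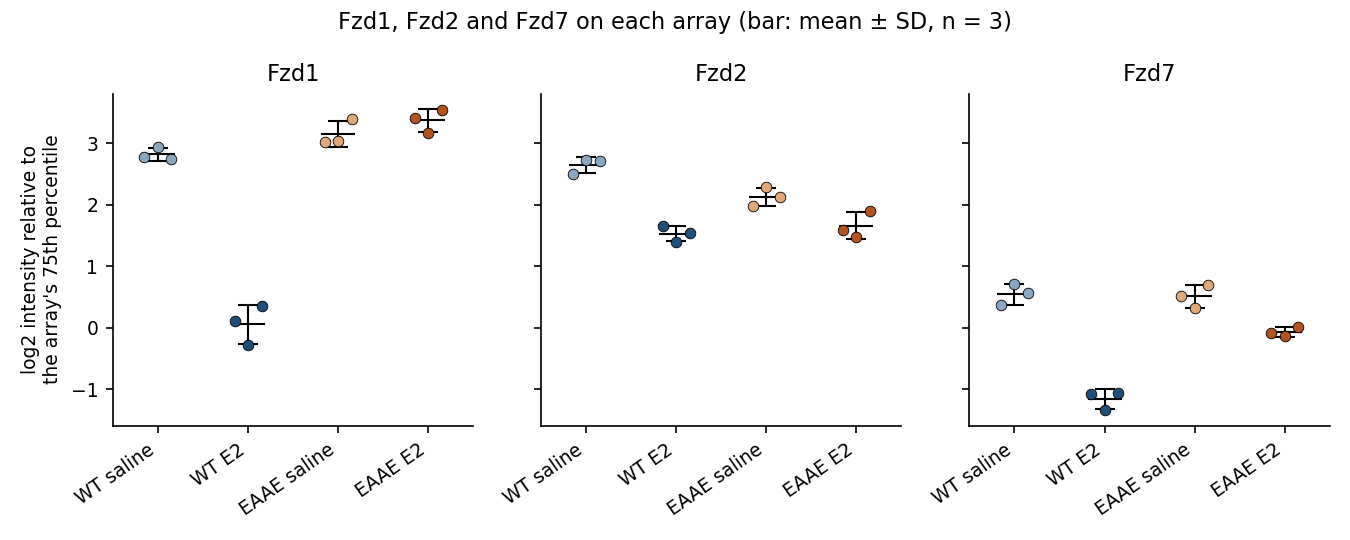
Level of Fzd1, Fzd2 and Fzd7 (brightest probe) on each of the 12 arrays. The vertical axis is log2 intensity relative to the array's 75th percentile, points are mice and bars are the mean ± SD (n = 3). WT E2 mice lie lowest for Fzd1 (-0.28 to 0.35) and Fzd7 (-1.34 to -1.06), while for Fzd2 they overlap with EAAE E2.

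Fzd7, a receptor of the same subfamily, lay at 0.37, 0.71 and 0.56 in WT saline and at -1.07, -1.34 and -1.06 in WT E2 by its brighter probe. It lay at 0.52, 0.32 and 0.69 in EAAE saline and at -0.08, -0.13 and 0.02 in EAAE E2. Both genotypes had lower values after estradiol with no overlap, and the WT E2 mice lay below the EAAE E2 mice. The WT difference was log2 -1.70 (SE 0.13, adjusted p = 2.99e-06), with -1.43 and -1.97 within slides 1 and 3 and -1.72 with slide as a block. The EAAE difference was -0.57 (SE 0.13, 95% interval -0.85 to -0.30) and missed the threshold at adjusted p = 0.0557. It passed with quantile scaling (0.0456), normexp background (0.0388) and a stricter probe filter (0.0401), and within slides 1 and 2 it was -0.40 and -0.74. The responses of the genotypes differed by 1.13 (SE 0.18, adjusted p = 0.000824).

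The dimmer Fzd7 probe, the one that shares bases with Fzd2, gave smaller values. It lay at -1.94, -1.82 and -1.75 in WT saline and at -2.98, -3.30 and -2.98 in WT E2, a difference of -1.25 (SE 0.14, adjusted p = 3.96e-05). It lay at -2.49, -2.17 and -2.02 in EAAE saline and at -2.76, -2.89 and -2.65 in EAAE E2, a difference of -0.54 (adjusted p = 0.0885). In order of their means, from WT saline over EAAE saline and EAAE E2 to WT E2, neighbouring groups did not overlap on this probe. On the brighter one WT saline and EAAE saline overlapped. The responses differed by 0.71 (SE 0.19, adjusted p = 0.0159), so both probes gave a larger fall in WT. The part of the shared bases in the gap between the probes was not tested.

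Fzd2, a receptor used by Wnt5a among others, lay at 2.50, 2.72 and 2.71 in WT saline and at 1.65, 1.40 and 1.54 in WT E2. It lay at 1.98, 2.28 and 2.12 in EAAE saline and at 1.59, 1.48 and 1.90 in EAAE E2. Saline and E2 mice did not overlap in either genotype, WT saline lay highest, and the 2 E2 groups overlapped. The WT difference was log2 -1.12 (SE 0.13, adjusted p = 5.70e-05), with -0.97 and -1.31 within slides 1 and 3 and -1.06 with slide as a block. The EAAE difference was -0.47 (SE 0.13, 95% interval -0.75 to -0.18, adjusted p = 0.112), and reached adjusted p = 0.0452 without EAAE E2 3 (-0.59). The responses differed by 0.65 (SE 0.18, adjusted p = 0.0184). This did not hold with the array median (0.56, adjusted p = 0.0581) or with slide as a block (0.53, adjusted p = 0.0816). Within slide 1 the responses differed by 0.28.

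The second Fzd2 probe, much dimmer, lay at -0.88, -0.44 and -1.06 in WT saline and at -1.71, -2.87 and -1.86 in WT E2. Its WT difference of -1.35 (SE 0.32, adjusted p = 0.00513) also passed the test. In EAAE it was -0.28 (SE 0.32, adjusted p = 0.699), with overlapping groups, and the response difference of 1.07 had an adjusted p of 0.0862. The probes gave the same direction in every comparison.

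**Figure D2:**
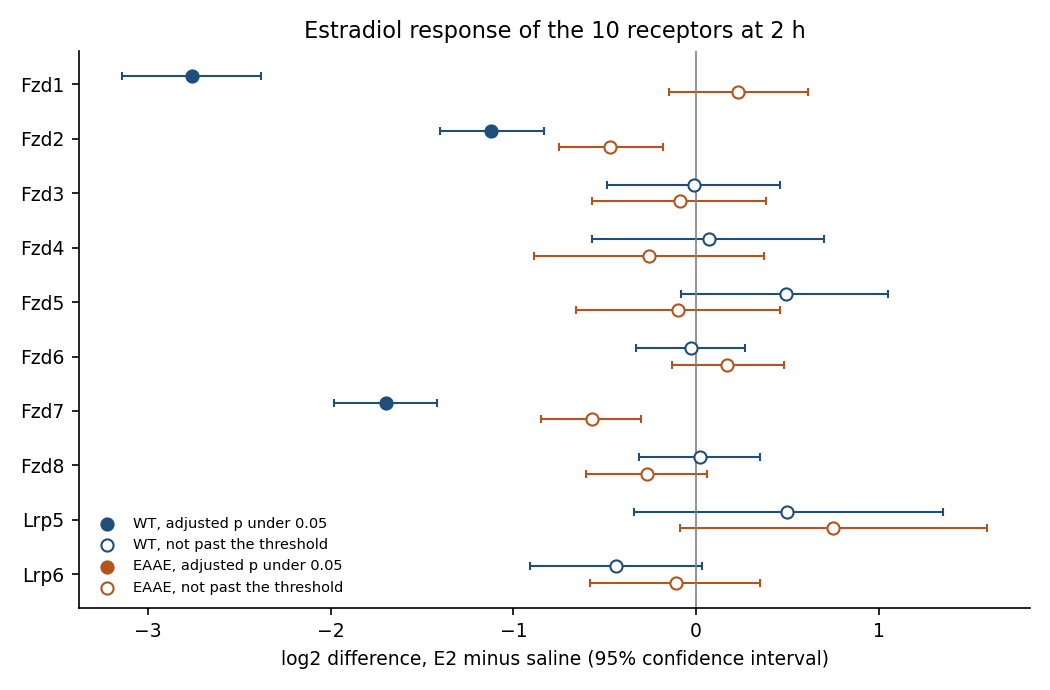
Difference between E2 and saline for the 10 receptor genes in WT (blue) and EAAE (orange), as log2 difference with its 95% confidence interval from limma. Filled points have an adjusted p under 0.05: Fzd1 (-2.76), Fzd7 (-1.70) and Fzd2 (-1.12) in WT, and no gene in EAAE.

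In the EAAE uterus, 0 of the 10 members passed the limma test after estradiol, where 1.45% of all genes did. At an unadjusted p under 0.05 there were 2 members, Fzd7 and Fzd2, and 16% of all genes. These were also the members whose saline and E2 groups did not overlap, both lower in E2 (8.87% of all genes were apart and lower, and 18.5% apart in either direction). The 280 genes called in EAAE became 8 when only the EAAE groups were fitted. Between the genotypes, 37.3% of all genes and 3 of the 10 members differed in their response, and all 3 had a positive EAAE minus WT difference, as 22.2% of all genes had. The share of higher genes among those called depends on the scaling: 39.7% in WT by the 75th percentile and 53.4% by the array median, and 47.5 and 62.7% in EAAE. The array median also moved the median of all genes in WT from -0.146 to -0.011. Under it Fzd1, Fzd7 and Fzd2 were -2.62, -1.57 and -0.98 in WT.

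Marker levels of several cell types moved in the same comparison, and a whole uterus cannot tell fewer cells of a type from less RNA per cell. Of 10 stromal markers, 8 were called lower and 1 higher in WT after estradiol, and their summed intensity, relative to the 75th percentile, ranged over 447 to 474 in WT saline and 301 to 343 in WT E2. All 8 adipocyte markers were lower (28.5 to 194 against 3.41 to 25.4), as were 5 of 8 endothelial (31.7 to 37.1 against 21.4 to 22.2) and 2 of 8 macrophage markers (103 to 163 against 65.4 to 83.0). Of 10 epithelial markers 3 were higher (125 to 144 against 123 to 132), and of 10 smooth muscle markers 1 was higher (499 to 589 against 498 to 594). Of all genes 29.7% were called lower and 19.6% higher in this comparison. The macrophage, epithelial and smooth muscle counts are near or under that background. All markers were above background on 12 arrays except Lep, on 9. In EAAE 1 of the 10 stromal markers was called higher by limma and 0 of the 44 markers of the other lists were called, 4 of them at an unadjusted p under 0.05. There 1.45% of all genes were called, and 16% had an unadjusted p under 0.05. The part of these marker levels in the fall of Fzd1, Fzd2 and Fzd7 was not tested.

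The other members did not pass the test for estradiol in WT. Fzd5, a receptor known from gut and eye, lay at -4.32, -4.15 and -3.96 in WT saline and at -3.15, -3.92 and -3.90 in WT E2. The groups did not overlap, and the difference was log2 0.49 (SE 0.25, 95% interval -0.08 to 1.05, adjusted p = 0.137). It passed with quantile scaling (0.64, adjusted p = 0.0338) and the array median (0.62, adjusted p = 0.0462). Its second probe was well above background on 1 array, an EAAE E2 one, and was not tested. Fzd4, a receptor for Wnt ligands and norrin, ranged from -0.72 to 0.41 over the 12 mice, all 4 groups overlapped, and the WT difference was 0.07 (SE 0.28, 95% interval -0.57 to 0.70). Fzd6, a polarity receptor, ranged from 0.40 to 0.98, with a WT difference of -0.03 (SE 0.14, 95% interval -0.33 to 0.27).

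The coreceptor Lrp6 lay at -3.50, -3.33 and -2.80 in WT saline and at -3.58, -3.73 and -3.65 in WT E2. These groups did not overlap, and the difference was log2 -0.44 (SE 0.21, 95% interval -0.91 to 0.03, adjusted p = 0.107). In EAAE, Lrp6 lay at -2.95, -2.73 and -2.58 in saline and at -2.44, -3.03 and -3.14 in E2, with a difference of -0.11 (adjusted p = 0.835). The coreceptor Lrp5 had the largest SE of the members. It lay at -1.50, -1.40 and -0.31 in WT saline, at -0.53, -0.37 and -0.80 in WT E2, at -2.48, -2.41 and -2.07 in EAAE saline and at -0.96, -1.35 and -2.39 in EAAE E2. WT saline 3 and EAAE E2 3 stood away from the others of their groups. E2 minus saline was 0.50 (SE 0.38, 95% interval -0.34 to 1.35) in WT and 0.75 (SE 0.38, 95% interval -0.09 to 1.59) in EAAE, and neither passed (adjusted p = 0.298 and 0.368).

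The EAAE uterus differed from WT under saline at 4 of the 10 members, against 29.6% of all genes (14.6% higher, 15% lower). Fzd3 was higher in EAAE, and Fzd2, Fzd8 (brighter probe) and Lrp5 were lower. Fzd3, a polarity receptor known from axon guidance, was 3.06-fold higher. Fzd1, Fzd4, Fzd5, Fzd6, Fzd7 and Lrp6 did not pass the test. The members' median difference was log2 -0.01 and that of all genes 0.00.

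Fzd3 lay at -3.40, -3.25 and -3.67 in WT saline and at -3.37, -3.53 and -3.46 in WT E2. It lay at -1.74, -1.84 and -1.91 in EAAE saline and at -2.41, -1.98 and -1.38 in EAAE E2. On this brighter probe all EAAE mice lay above all WT mice, and within each genotype saline and E2 mice overlapped. The genotype difference was log2 1.61 under saline (SE 0.21, adjusted p = 0.000376) and 1.53 after E2 (SE 0.21, adjusted p = 0.000131). It was 1.57 within slide 1 under saline, and 1.05, 1.39 and 2.15 within slides 1, 2 and 3 after E2. With slide as a block it was 1.71 (adjusted p = 0.00334) under saline. A second Fzd3 probe, whose mm7 ends lie on chromosome 14 at 60072091 and 60094840, gave 1.16 (adjusted p = 0.00133) and 0.85 (adjusted p = 0.00263). Estradiol moved the brighter probe by -0.01 in WT (95% interval -0.49 to 0.46) and by -0.09 in EAAE (95% interval -0.57 to 0.38). The second probe gave -0.15 in WT (adjusted p = 0.526) and -0.46 in EAAE (95% interval -0.87 to -0.05, adjusted p = 0.252). On that probe the saline and E2 mice of EAAE did not overlap.

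Under saline Fzd2 was lower in EAAE by its brighter probe, at log2 -0.52 (SE 0.13, adjusted p = 0.0122). With slide as a block it was -0.41 (adjusted p = 0.115), and within slide 1 it was -0.23. The call was also lost with slide and position in the fit (adjusted p = 0.842). The dimmer probe gave -0.70 (adjusted p = 0.128). Lrp5 was lower by log2 -1.25 (SE 0.38, adjusted p = 0.0315), with no overlap between the groups. It no longer passed without WT saline 3 (-0.87, adjusted p = 0.107), EAAE saline 1 (-1.17, 0.0842), EAAE saline 2 (-1.2, 0.0764) or EAAE saline 3 (-1.37, 0.0528). The same held with slide as a block (-1.38, 0.0901), slide and position together, the replicate block (-1.25, 0.0590) and no filter on dim probes (0.0531).

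Fzd8, a receptor close to Fzd5, had 2 probes that disagreed. The brighter lay at -2.74, -2.71 and -2.80 in WT saline, at -2.69, -2.73 and -2.79 in WT E2, at -3.19, -3.46 and -3.30 in EAAE saline and at -3.35, -3.42 and -3.98 in EAAE E2. On this probe all EAAE mice lay below all WT mice, by log2 -0.57 under saline (SE 0.15, adjusted p = 0.0166) and -0.85 after E2 (SE 0.15, adjusted p = 0.000626). The saline call was lost without EAAE saline 2 (-0.50, adjusted p = 0.0564). It was also lost with slide and position in the fit and with the mean over the tested probes. With that mean the call after E2 was lost as well (adjusted p = 0.479). The dimmer probe lay at -4.99, -4.83 and -4.78 in WT saline, at -5.52, -5.69 and -5.36 in WT E2, at -4.77, -4.90 and -4.53 in EAAE saline and at -4.89, -5.02 and -4.57 in EAAE E2. On this probe the WT E2 mice lay below all others. It gave 0.14 for genotype under saline (adjusted p = 0.509), 0.70 after E2 (SE 0.14, adjusted p = 0.0017) and -0.66 for estradiol in WT (SE 0.14, adjusted p = 0.00331), against 0.02 (adjusted p = 0.934) on the brighter probe. The direction for Fzd8 therefore depends on the probe. The dimmer one was above background on 11 of 12 arrays. The exception was WT E2 2, whose -5.69 lay under that array's lowest signal above background (-5.23). The WT E2 level of this probe is thus near background.

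**Figure D3:**
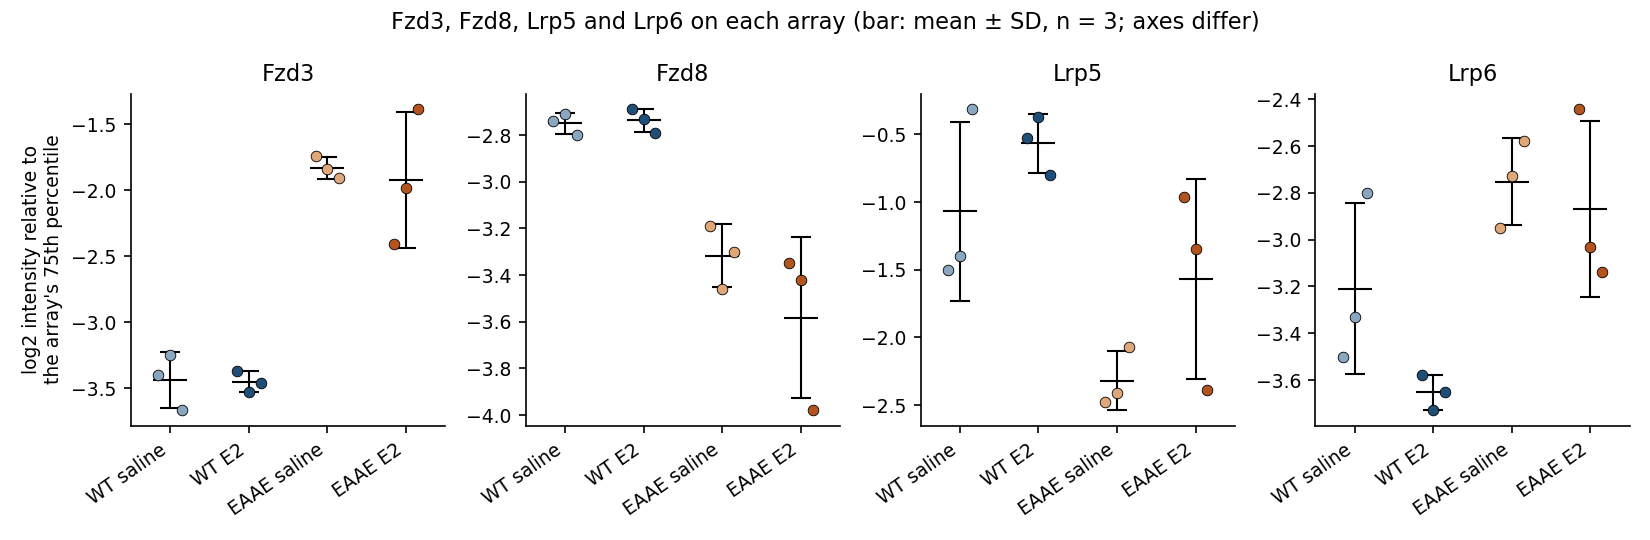
Level of Fzd3, Fzd8, Lrp5 and Lrp6 (brightest probe) on each of the 12 arrays, as log2 intensity relative to the array's 75th percentile on a separate axis for each gene. Points are mice and bars the mean ± SD (n = 3). EAAE mice lie above WT mice for Fzd3 and below them for Fzd8, and Lrp5 spreads widely in WT saline and EAAE E2.

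After estradiol, 6 of the 10 members differed between EAAE and WT, against 58% of all genes (33.5% higher, 24.5% lower). Fzd1, Fzd3, Fzd7 and Lrp6 were higher in EAAE, and Fzd8 (brighter probe) and Lrp5 were lower. Fzd1 was 9.95-fold higher, at log2 3.31 (SE 0.17, adjusted p = 1.53e-07), with 3.06, 3.06 and 3.83 within slides 1, 2 and 3. Fzd7 was higher by 1.09 on the brighter probe (SE 0.13, adjusted p = 3.42e-05), with 0.97, 0.93 and 1.36 within the slides, and by 0.32 on the dimmer one (adjusted p = 0.0657). Fzd2 was not separated, at 0.13 (SE 0.13, 95% interval -0.16 to 0.41, adjusted p = 0.435), and its dimmer probe gave 0.37 (adjusted p = 0.34). Under saline the same difference had been 0.33 for Fzd1 (95% interval -0.05 to 0.71, adjusted p = 0.172) and -0.04 for Fzd7 on the brighter probe (95% interval -0.32 to 0.24, adjusted p = 0.835). The dimmer Fzd7 probe gave -0.39 under saline, with groups that did not overlap (95% interval -0.69 to -0.09, adjusted p = 0.0569).

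Lrp6 was 1.72-fold higher in EAAE after estradiol, at log2 0.78 (SE 0.21, adjusted p = 0.00865). The groups did not overlap, and the gap was 1.21, 0.55 and 0.60 within slides 1, 2 and 3. With slide and position in the fit it was 0.36 (adjusted p = 0.601). Under saline the Lrp6 difference had been 0.46 (SE 0.21, adjusted p = 0.132), with overlapping groups. It passed without WT saline 3 (0.66, adjusted p = 0.0404). The estradiol responses of the genotypes differed by 0.33 for Lrp6 and did not pass (SE 0.3, adjusted p = 0.412). A Lrp6 excess that appears only after estradiol is therefore not shown. Lrp5 was lower after estradiol, at -1.0 (SE 0.38, adjusted p = 0.0428), and without EAAE E2 3 it was -0.59 (adjusted p = 0.157). It was -0.16, -0.82 and -2.02 within the slides, and leaving out any WT E2 or EAAE saline mouse, or EAAE E2 2, also ended the call (-1.12 to -0.90, adjusted p = 0.0523 to 0.118). Fzd5 was -0.56 (SE 0.25, adjusted p = 0.0822).

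**Figure D4:**
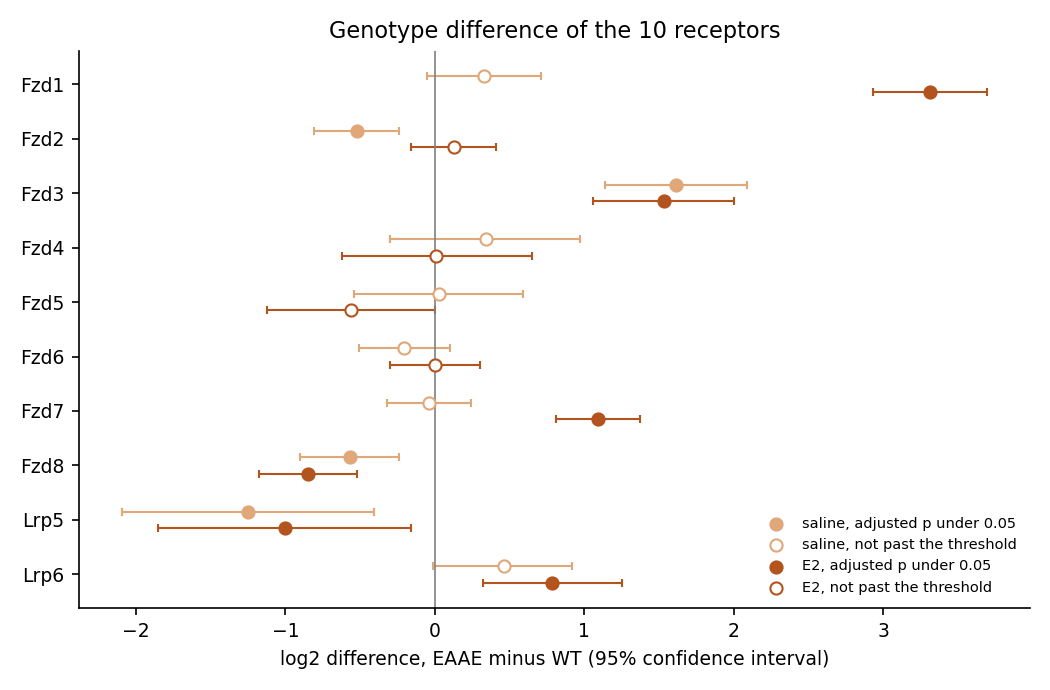
Difference between EAAE and WT for the 10 receptor genes under saline (light) and after E2 (dark), as log2 difference with its 95% confidence interval from limma. Filled points have an adjusted p under 0.05. Fzd3 is higher in EAAE in both treatments (1.61 and 1.53), Fzd1 (3.31) and Fzd7 (1.09) pass after E2 and not under saline.

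Markers of some cell types differed between the genotypes as well. Of all genes, 14.6% were called higher and 15% lower under saline, and 33.5% higher and 24.5% lower after E2. Under saline 9 of 10 epithelial markers were called higher in EAAE, with a summed level of 205 to 256 against 125 to 144 in WT, and after E2 6 were higher and 1 lower (206 to 246 against 123 to 132). Of 10 smooth muscle markers 1 was lower under saline (425 to 464 against 499 to 589) and 8 after E2 (299 to 489 against 498 to 594). Of 10 stromal markers 2 were higher and 1 lower under saline (365 to 374 against 447 to 474), and 7 higher and 1 lower after E2 (389 to 457 against 301 to 343). Of 8 macrophage markers 1 was higher and 4 lower under saline (30.9 to 45.4 against 103 to 163), and 1 was higher after E2 (31.6 to 125 against 65.4 to 83.0). Of 8 endothelial markers 2 were lower under saline (27.0 to 30.2 against 31.7 to 37.1) and 2 higher after E2 (30.2 to 34.6 against 21.4 to 22.2). Adipocyte markers gave 0 calls by limma under saline (38.7 to 211 against 28.5 to 194), with 0 at an unadjusted p under 0.05, and 8 of 8 higher after E2 (58.8 to 283 against 3.41 to 25.4). The smooth muscle, stromal, endothelial and adipocyte counts under saline, and the endothelial and macrophage counts after E2, are near or under the all-gene shares. The part of these marker levels in the genotype differences of Fzd1, Fzd2, Fzd3, Fzd7, Fzd8, Lrp5 and Lrp6 was not tested.

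Across the 12 arrays the members varied in part together. Fzd1 and Fzd7 had a Pearson r of 0.88 and Fzd2 and Fzd7 0.79, while Fzd3 and Fzd8 had -0.92 and Fzd3 and Lrp5 -0.85. The arrays share 4 groups, so these values follow the group means given above. They use the brightest probe of each gene. The group means of the dimmer Fzd8 probe had the same order as those of Fzd3, so the sign for this pair depends on the probe. Of all tested genes, those most like Fzd1 over the 12 arrays were 2900093K20Rik (r = 0.9943), Rspo3 (0.9942), Zkscan4 (0.9933), Zfp174 (0.9933) and Rab29 (0.9932). Their log2 differences for estradiol in WT were -1.90, -2.79, -2.62, -1.30 and -0.78, and in EAAE they lay between 0.02 and 0.25. Those most like Fzd7 were Fam102b (0.991), 5930430L01Rik (0.9839), 9530013L04Rik (0.9813), AK081699 (0.9811) and Ppp1r3d (0.98). They fell by 1.35 to 2.31 in WT and gave -0.37 to -0.80 in EAAE. Both sets were picked by likeness over these same 12 arrays, so the pattern of their differences follows from the choice.

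Around the receptors, genes that set how long they stay at the cell surface also moved. The list of receptor turnover and delivery genes had 19 members, of which 18 were tested. In WT after estradiol 11 were called lower and 2 higher, where 29.7% of all genes were lower and 19.6% higher, with a median of log2 -0.50 against -0.15 for all genes. In EAAE 0 passed limma (5 at an unadjusted p under 0.05), where 1.45% of all genes passed and 16% had an unadjusted p under 0.05. The responses differed for 12, with 9 positive and 3 negative, against 37.3% of all genes. Rnf43 and Znrf3, ubiquitin ligases that remove Frizzled proteins, changed by -1.57 (SE 0.15, adjusted p = 1.97e-05, other probe -2.74) and -0.59 (SE 0.11, adjusted p = 0.00144). Rspo3 and Rspo1, secreted R-spondins that block those ligases, changed by -2.79 (SE 0.24, adjusted p = 9.28e-06) and -0.67 (adjusted p = 0.00352). Rspo2 was above background on 1 of 3 WT saline and on 0 of 3 WT E2 arrays. It lay at -5.49, -6.04 and -3.97 in WT saline, WT saline 3 being the highest, and no fold is given for its lower call (adjusted p = 0.0065).

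The R-spondin receptors differed among themselves. Lgr6 rose by log2 2.92 in WT (SE 0.20, adjusted p = 1.84e-06) and gave -0.59 in EAAE (adjusted p = 0.18), where its probes disagreed in sign (0.59 on the other). Lgr4 was at -0.39 (adjusted p = 0.00717) on its brightest probe, and the other 2 ranged from -0.37 to 0.36. Lgr5 gave -0.70 in WT and 0.80 in EAAE, neither past the threshold, and the responses differed by 1.5 (adjusted p = 0.0172). Apcdd1, a membrane Wnt inhibitor, fell by 2.12 and Shisa3, of a family known to hold Frizzled proteins in the endoplasmic reticulum, by 2.36 (SE 0.76, adjusted p = 0.0252), above background on 2 of 3 WT E2 arrays. Kremen1, a Dickkopf receptor that removes Lrp6, fell by 0.61 on its brighter probe (other probe 0.00), Tmem59 by 0.40 and Caprin2 by 0.30. Mesd, the chaperone that Lrp5 and Lrp6 need to reach the surface, rose by 0.77 (SE 0.09, adjusted p = 7.29e-05). Among Fzd4 partners the ligand Ndp (norrin) fell by 3.07 (SE 0.23, adjusted p = 3.72e-06) and the tetraspanin Tspan12 by 0.59 (adjusted p = 0.0193). Fzd4 itself had not passed the test. Tspan12 was also lower in EAAE under saline (-1.16, adjusted p = 0.000952), and after estradiol Ndp was at 3.82 and Tspan12 at -0.68, both past the threshold.

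**Figure D5:**
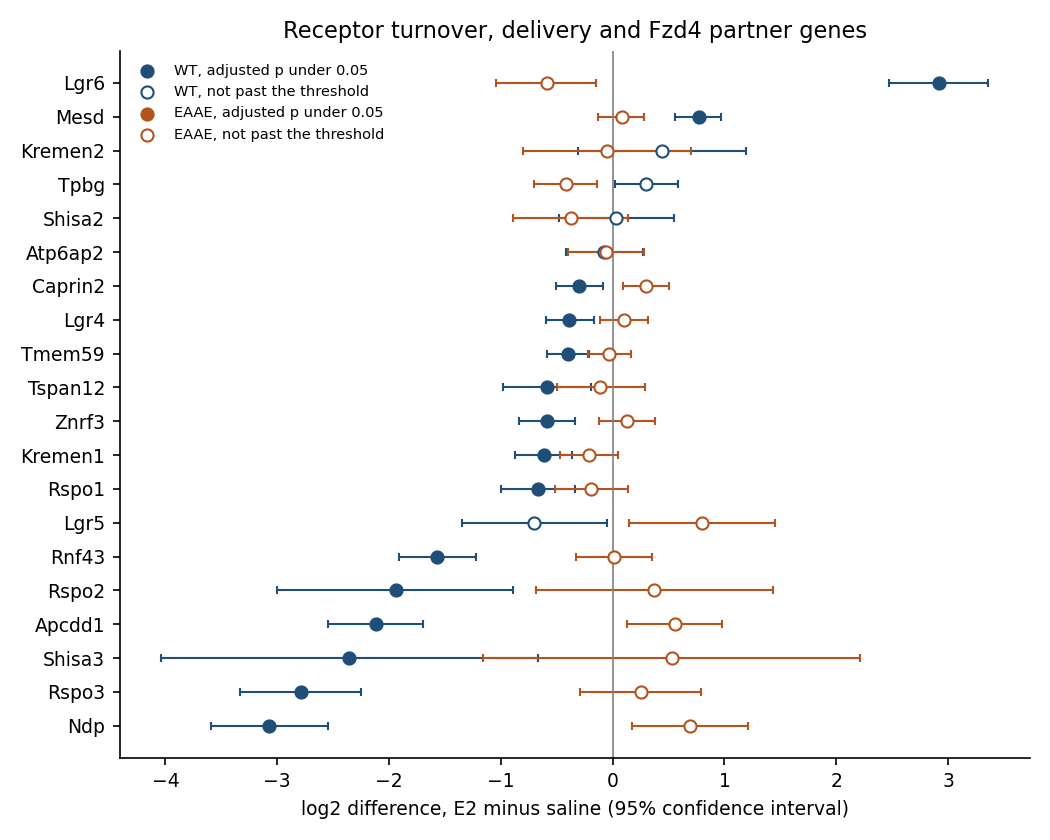
Difference between E2 and saline for the 18 tested receptor turnover and delivery genes and the Fzd4 partners Ndp and Tspan12, in WT (blue) and EAAE (orange), as log2 difference with its 95% confidence interval from limma. Filled points have an adjusted p under 0.05, and all of them are WT values, from Ndp (-3.07) to Lgr6 (2.92).

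Under saline the turnover list gave 7 genes higher and 4 lower in EAAE, against 29.6% of all genes called. After estradiol it gave 13 higher and 3 lower, against 58%. Kremen2 (1.85, adjusted p = 0.00262, above background on 2 of 3 WT saline arrays), Lgr5 (1.61, adjusted p = 0.00252), Apcdd1 (0.94) and Lgr4 (0.75) were higher under saline. The remaining higher ones were Kremen1 (0.56, other probe 0.03), Tpbg (0.43, other probes 0.04 and 0.07) and Znrf3 (0.35). Shisa2 (-1.96, adjusted p = 0.000196), Lgr6 (-1.24, other probe -0.48), Rnf43 (-0.81) and Rspo1 (-0.48) were the lower ones. After estradiol Lgr6 was lower at log2 -4.75 on its brighter probe, above background on 1 of 3 EAAE E2 arrays, and at -2.45 on the other. Apcdd1 (3.62), Rspo3 (3.44) and Lgr5 (3.11) were among the higher ones, as was Atp6ap2 (0.41), a proton pump subunit that binds Lrp6. Rspo2 was at least 4.44-fold higher in EAAE, with all 3 EAAE E2 arrays and no WT E2 array above background.

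A further list of 14 genes, of which 13 were tested, held other Wnt receptors and coreceptors together with polarity proteins of the Vangl and Celsr families and Smo. In WT after estradiol 3 were higher (Fzd9 1.08, Ror2 0.70, Lrp4 0.66) and 4 lower, against 49.3% of all genes called. The lower ones were Vangl1 (-0.69), Vangl2 (-0.51), Ptk7 (-0.47) and Smo (-0.27, other probe -0.02). In EAAE 0 passed limma (4 at an unadjusted p under 0.05), against 1.45% of all genes called and 16% with an unadjusted p under 0.05. Fzd9 was above background on 1 of 3 WT saline arrays, so its differences from that group rest on a level near background. Under saline 6 were higher in EAAE and 1 lower, against 29.6% of all genes called. The higher ones were Lrp4 (1.96, adjusted p = 2.08e-05), a relative of the coreceptors, Fzd9 (1.64), the polarity cadherins Celsr1 (1.17), Celsr2 (0.85, other probes 0.26 and 0.40) and Celsr3 (0.86), and Vangl2 (0.40, whose 3 other probes ranged from -0.17 to 0.61). Smo, the Hedgehog transducer of Frizzled fold, was the lower one (-0.30, other probe -0.76). After estradiol Ror2, a Wnt5a receptor, was lower in EAAE (-0.73, adjusted p = 0.00379, other probe -1.94), and Ptk7 (0.79) and Ryk (0.22, other probe -0.13) were among the 7 higher, where 58% of all genes were called.

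The lists of pathway genes together held 117 genes, of which 105 were tested, and 61% of these were called in WT after estradiol (21 higher, 43 lower), against 49.3% of all genes. In EAAE 4 were higher and 1 lower, or 4.8% of those tested, against 1.45% of all genes. Ligand genes in WT gave 4 higher and 5 lower of 15, with Wnt4 (3.29), Wnt9a (1.64) and Wnt7b (1.17) of smallest p. Secreted antagonists gave 2 higher and 5 lower of 13, among them Dkk2, a Dickkopf ligand of Lrp6 (-1.77), Sfrp2 (-0.70) and Dkkl1 (1.12). Dkk2 moved the other way in EAAE (0.75, adjusted p = 0.0161), and its responses differed by 2.52 (SE 0.16, adjusted p = 3.63e-06). Cytoplasmic transducers gave 8 higher and 9 lower of 28 (Dact1 -2.34, Amer1 -1.78, Nkd2 -1.64). Nuclear partners gave 1 higher and 5 lower of 12 (Tle1 -1.63, Tle3 1.2, Bcl9 -1.02 with 0.11 on its other probe). Feedback targets of beta-catenin gave 2 higher and 7 lower of 14 in WT, with Apcdd1 (-2.12), Rnf43 (-1.57) and Myc (1.30) of smallest p. In EAAE against WT under saline they gave 7 higher and 3 lower, where 14.6% of all genes were higher and 15% lower.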

How the data were processed

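RNA of 12 mouse uteri was hybridised to single-colour Agilent arrays. Per the file headers, the authors extracted spots with Feature Extraction 9.5.3.1 (the submitters' processing notes give 9.5). Per the file headers, the values are linear intensities corrected for background within each array, and the authors' series table repeats them spot for spot. Here log2 was taken, each array's 75th percentile subtracted, and control and outlier spots left out. Of 41174 probes, 29016 were tested, each bright enough (well above background) on every array of 1 group or more. The brightest probe stood for a gene. Symbols came from RefSeq (GRCm38.p6) and probe coordinates from the files (mm7).

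Differences were fitted with limma 3.58.1 (R 4.3.3) over all 12 arrays for 5 comparisons, 2-sided, with Benjamini-Hochberg adjustment over 19304 genes (threshold 0.05), after a test on simulated data. Python 3.11.15 prepared the tables. "At least" sets the brighter group against the lowest signal above background where no array of the dimmer group measured the gene. Each array held 1 uterus, and 3 mice per group limit the precision.

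Named were all members with every probe, up to 3 genes of smallest p per pathway list in WT, every called gene of the receptor, turnover and Fzd4 partner lists, the 5 genes most like Fzd1 and Fzd7, and Esr1. The members and lists were chosen with earlier results of these data known. Alternatives were other scalings, background, filters, probe choices, slide, position, replicate number and leaving out each array. Same-numbered arrays of different groups correlated at -0.282 to 0.275 (18 pairs), so the numbers were not taken to pair mice.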

Additional observations from a re-analysis of the deposited data

Results flagged for a closer look

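The estradiol response differed between the genotypes by a test of the difference itself for 3 receptors. Fzd1 gave log2 2.98 (EAAE minus WT, limma adjusted p = 1.41e-05), Fzd7 1.13 (adjusted p = 0.000824) and Fzd2 0.65 (adjusted p = 0.0184). For Fzd2 this did not hold in 4 of the alternatives: array median scaling (0.56, adjusted p = 0.0581), a slide block (0.53, adjusted p = 0.0816), slide and position together (0.53, adjusted p = 0.084) and the dimmer probe (1.07, adjusted p = 0.0862). In each of these genes all 3 WT mice given estradiol lay below all WT saline mice.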

How the results depend on the processing

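Of 1210 alternative values of members, 1160 kept their side of the threshold, 33 lost the call, 13 gained one and 4 were reversed. Among the 1160, 57 differed in sign while neither value passed. That count uses rounded values and takes a rounded 0 as a sign of its own, so it overstates true sign changes. The reversed values were all of Fzd8: estradiol in WT at -0.32 (mean over probes, adjusted p = 0.011) and -0.66 (other probe), and genotype on the other probe at 0.14 under saline and 0.70 after E2. The WT calls of Fzd1, Fzd2 and Fzd7 held under every alternative run, from -2.90 to -2.59, -1.35 to -0.92 and -1.79 to -1.25. Slide with position gave 6251 called genes for estradiol in WT, 12 in EAAE, 420 for genotype under saline (1 member) and 5201 after E2. Slide as a block gave 140 in EAAE and 3629 under saline (2 members). In EAAE normexp gave 456, no filter on dim probes 120 and the fit of only the compared groups 8, with 1 member called under normexp, quantile scaling and the stricter filter. Leaving out 1 array gave 63 to 367 genes and 0 to 1 members in EAAE, and 2 to 4 members under saline. A block on replicate number gave 141 genes in EAAE, lost Lrp5 in both genotype comparisons and changed no other call of a member. Signal over background limited the dimmer probes of Fzd5 and Fzd8. The cause of these shifts was not tested.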
